A study of Mus musculus with 3 samples.

Results

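The hippocampus of a mouse given 300 CUG repeats was compared with that of a mouse given 10 CUG repeats, both with vehicle, at all alternative splicing events that were listed for this pair of libraries. The pair listed 6263 of the 8727 events of the series, in 3768 of its 4860 gene symbols. The 2526 events that reached 20 counts in both libraries were used for splicing, and the 1550 genes with at least 50 counts in 1 of the libraries were used for gene totals. Both animals were wild-type C57BL/6J mice, labelled as 10 weeks old, and the methods of the study state that males were used. Adeno-associated virus serotype 9 (AAV9) carrying 10 or 300 CTG repeats in the 3′-UTR of Egfp was injected into the CA1 region of both hippocampi together with vehicle (AAV9-CUG10 + vehicle and AAV9-CUG300 + vehicle). Tissue was taken 10 days after gene transfer. A further library of the series came from a mouse given AAV9-CUG300 and CWG-cPIP, a cyclic pyrrole-imidazole polyamide, and its values are given at a few points only. Each group was 1 mouse, so no difference below has a replicate check and no test across mice was made. The virus also delivers Egfp in both groups, it was placed by local injection, and the RNA is that of bulk tissue.

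Expanded CUG repeats in RNA are the cause of myotonic dystrophy type 1 (DM1). The repeat RNA folds into hairpins that collect muscleblind-like (MBNL) proteins in nuclear foci, and MBNL proteins normally bind YGCY motifs in pre-mRNA and steer the switch from fetal to adult exon use. Proteins of the CELF family act on many of the same exons. In the hippocampus, the CA1 region is made mainly of excitatory pyramidal neurons, with astrocytes, oligodendrocytes, microglia and, next to the ventricle, ependyma and choroid plexus. The comparison asks which splicing events, and which genes seen through them, differ when the repeat is long.

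The tables held 530942 counts of reads for CUG10 + vehicle and 512513 for CUG300 + vehicle, with a median of 23 and 14 counts per listed event. Percent spliced in (PSI) is the share, from 0 to 1, of a gene's transcripts that contain the alternative segment, where the counts of both forms are first scaled for the unequal room that each offers to reads. The form lengths in the tables fit a read length setting of 75 nt, which is shorter than the reads given in the methods, so this scaling may not fit the reads and the size of each PSI depends on it. With the plain share of inclusion counts in place of PSI, 62 events passed the call rule given next, of which 51 were among the 74 called with PSI. An event was called where the PSI difference, CUG300 + vehicle minus CUG10 + vehicle, was above 0.15 in size and its 95% interval left out 0. All intervals here cover at most counting error, and none covers the spread between mice, since each group was 1 mouse. They treat every count as independent. The fragments carry no molecular identifiers and overlapping events of a gene share reads, so the intervals can be too narrow, those of gene totals above all. Neuron genes, which do not tell hippocampus from other brain regions, were detected in both libraries. The genes Snap25, Syp and Slc17a7 had 3866, 3594 and 1292 event counts in CUG10 + vehicle and 1036, 1565 and 362 in CUG300 + vehicle, while the summed level of choroid plexus markers was 1106 and 79760 event counts-per-million of the library total. Genes particular to the hippocampus were not checked.

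Of 2526 events, 74 were called (2.93%), 19 with higher PSI (0.752%) and 55 with lower PSI (2.18%) in CUG300 + vehicle. Skipped exons (SE) gave 43 of these from 1948 events, 11 higher and 32 lower. Mutually exclusive exons (MXE) gave 14 from 160 events, alternative 3′ splice sites (A3SS) 9 from 197, alternative 5′ splice sites (A5SS) 4 from 125 and retained introns (RI) 4 from 96. All 4 called introns and all 4 called 5′ splice sites had lower PSI. The called events lay in 70 genes.

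The coding exons on which the splicing results turn are shown first, so that their size and content can be read beside the PSI values. They are printed 5′ to 3′ on the transcript strand from the GENCODE M21 transcripts of build mm10 (GRCm38). Capitals mark the MBNL-type motif YGCY, searched as TGCT or TGCC and as CGCT or CGCC on the transcript strand. The Enpp2 exon lies at chr15:54851348-54851422 on the minus strand. The Clta exons lie at chr4:44030215-44030268 and chr4:44031400-44031435, the Atp6v1h exon at chr1:5101070-5101123, the Nrcam exons at chr12:44578145-44578180 and chr12:44584835-44584987, and the Aifm3 exon at chr16:17506899-17506919, all on the plus strand. The Hnrnpa2b1 exon lies at chr6:51464428-51464547 on the minus strand.
Enpp2, 75 nt: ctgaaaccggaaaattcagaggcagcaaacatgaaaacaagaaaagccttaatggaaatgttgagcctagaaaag
Clta, 54 nt: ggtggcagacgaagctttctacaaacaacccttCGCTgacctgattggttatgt
Clta, 36 nt: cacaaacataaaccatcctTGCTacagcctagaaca
Hnrnpa2b1, 120 nt: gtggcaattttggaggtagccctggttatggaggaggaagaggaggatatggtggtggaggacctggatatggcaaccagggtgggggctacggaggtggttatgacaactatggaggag
Atp6v1h, 54 nt: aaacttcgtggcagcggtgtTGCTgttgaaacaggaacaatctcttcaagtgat
Nrcam, 36 nt: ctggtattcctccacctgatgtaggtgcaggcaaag
Nrcam, 153 nt: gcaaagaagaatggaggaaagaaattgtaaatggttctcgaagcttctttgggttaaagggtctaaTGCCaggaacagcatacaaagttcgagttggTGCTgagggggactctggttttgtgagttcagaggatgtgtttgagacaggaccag
Aifm3, 21 nt: gttgtttaTGCTacacagcaa

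The length of each of these exons is a multiple of 3. The Enpp2, Hnrnpa2b1 and 36-nt Nrcam exons hold none of the 4 motif words, and the other exons hold 1 or, in the 153-nt Nrcam exon, 2. Over the skipped exons of 20 or more counts with a sequence, a motif word was present in 19 of 32 called exons with lower PSI (59.4%), 8 of 11 with higher PSI (72.7%) and 1365 of 1823 that were not called (74.9%). The median exon length was 98 nt for lower PSI, 99 nt for higher PSI and 114 nt for exons not called. Only the exon itself was searched, and flanking introns were not analysed here. A word match is a description of the letters and not a binding site.

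Enpp2, which makes the lysophosphatidic acid-producing enzyme autotaxin, had the called skipped exon whose interval lay farthest from 0. Its 75-nt exon had 58 inclusion and 36 skipping counts in CUG10 + vehicle, a PSI of 0.444 (0.342 to 0.555). In CUG300 + vehicle it had 49 and 270, a PSI of 0.083 (0.061 to 0.109), and the difference was −0.362 (−0.467 to −0.26). The inclusion counts were alike, and the skipping counts made the difference. The total of Enpp2 (ENSMUSG00000022425) over its events was also higher, with 372 counts in CUG10 + vehicle and 2033 in CUG300 + vehicle. Enpp2 is on the list of choroid plexus markers, whose totals are given below, and the part of a changed cell mixture in this exon was not tested.

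Clta, a light chain of the clathrin coat in endocytosis, had 2 called exons that share 1 skipping junction. That junction, which leaves out both exons, had 23 counts in CUG10 + vehicle and 54 in CUG300 + vehicle. Against it, the 54-nt exon had a PSI of 0.738 (0.641 to 0.822) in CUG10 + vehicle against 0.425 (0.338 to 0.518) in CUG300 + vehicle. The 36-nt exon had 0.695 (0.586 to 0.792) and 0.402 (0.312 to 0.5). When each exon was instead measured between its neighbours with the other exon present, the 54-nt exon stood at 0.913 and 0.941 and the 36-nt exon at 0.782 and 0.819, and neither was called. The libraries therefore differed in transcripts without both exons, and the total of Clta was nearly the same, with 1343 and 1240 counts.

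Further skipped exons were called in genes of varied function. Atp6v1h, part of the V-ATPase proton pump that acidifies synaptic vesicles and lysosomes, had a 54-nt exon at a PSI of 0.115 (0.061 to 0.193) in CUG10 + vehicle against 0.404 (0.273 to 0.553) in CUG300 + vehicle. Nrcam, a neuronal cell adhesion molecule, had 2 called exons that moved in opposite directions. Its 36-nt exon stood at 0.867 (0.668 to 0.971) and 0.485 (0.28 to 0.703), on 32 and 24 counts. Its 153-nt exon stood at 0.199 (0.114 to 0.319) and 0.42, on 44 and 29 counts. Aifm3, a mitochondrial flavoprotein, had a 21-nt exon at 0.661 (0.417 to 0.86) and 0.206 (0.069 to 0.429), on 21 and 20 counts, which is just past the minimum of 20. Lower PSI was also called for exons of Ube2v2, a ubiquitin-conjugating enzyme variant (0.861 and 0.519), Kctd17 (0.634 and 0.275), Fmnl1, a formin of the actin cytoskeleton (0.969 and 0.658), and Thyn1 (0.806 and 0.586). Fgfr1op2 had a 114-nt exon with higher PSI, 0.25 (0.119 to 0.446) and 0.639 (0.417 to 0.84), on 24 and 33 counts.

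Some called events lay in genes that themselves act on RNA. On the list of other splicing regulators 6 of 56 events were called, on the list of hnRNP proteins 2 of 39, on the list of MBNL and CELF proteins 1 of 12 and on the list of SR and Tra2 proteins 0 of 14. Over all events 2.93% were called. Each of these listed calls had lower PSI in CUG300 + vehicle, as had 55 of all 74 called events. Hnrnpa2b1, an hnRNP protein of RNA transport and splicing, had its 120-nt exon at a PSI of 0.957 (0.896 to 0.988) in CUG10 + vehicle against 0.706 (0.601 to 0.8) in CUG300 + vehicle, on 239 and 153 counts. Pcbp2, a poly(C)-binding protein, had a 93-nt exon at 0.597 (0.486 to 0.705) and 0.403 (0.279 to 0.544).

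U2af1, a subunit of the factor that recognises the 3′ splice site, used the first of its mutually exclusive exons at 0.45 (0.326 to 0.579) in CUG10 + vehicle against 0.261 (0.158 to 0.387) in CUG300 + vehicle. Rbm4 had a 682-nt exon at 0.869 (0.536 to 0.996) and 0.452 (0.273 to 0.682). Bclaf1 had a 147-nt exon with 98 inclusion and 0 skipping counts in CUG10 + vehicle and 49 and 5 in CUG300 + vehicle, a PSI of 1.0 and 0.766. Rnps1, a part of the exon junction complex, Luc7l2, a partner of the U1 particle, and Fxr1, a relative of the fragile X protein, had differences of −0.238, −0.233 and −0.161. Of these, the interval of Fxr1 reached closest to 0, at −0.002. Celf4, a neuronal CELF protein, had 9 inclusion and 46 skipping counts for a 3-nt A3SS extension in CUG10 + vehicle and 0 and 27 in CUG300 + vehicle, where 0 of 27 still allows a PSI of up to 0.123.

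The inclusion plot gathers the named events and the width of their intervals.

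**Figure D1:**
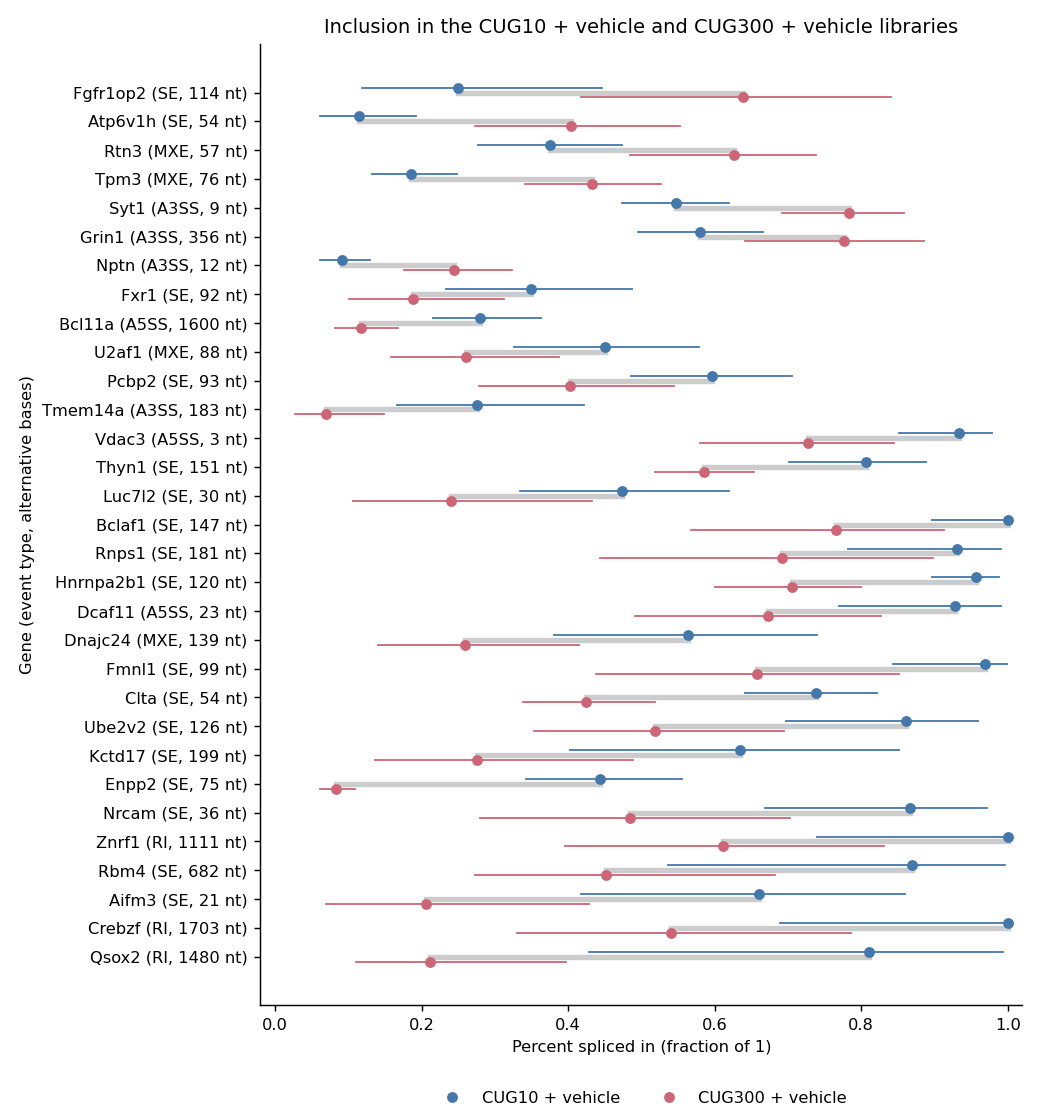
PSI, as a fraction of 1, of the named called events in CUG10 + vehicle (blue) and CUG300 + vehicle (red), 1 mouse each, with gene, event type and alternative bases on the vertical axis. Points are PSI values, thin bars show 95% Clopper-Pearson intervals and grey bars join the 2 values, and the Enpp2 exon stands at 0.444 and 0.083. Celf4 is left out of the plot.

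Tpm3, a tropomyosin that winds along actin filaments, had the called mutually exclusive pair whose interval lay farthest from 0. The first exon of the pair, at chr3:90088401-90088476 on the plus strand, was used at a PSI of 0.186 (0.133 to 0.249) in CUG10 + vehicle against 0.432 (0.341 to 0.527) in CUG300 + vehicle. Tpm1, a second tropomyosin, used the first exon of its 126-nt pair less, with a PSI of 0.18 (0.094 to 0.3) and 0.021 (0.001 to 0.113). Both pairs are shown, again with motif words in capitals, because the exons of a pair replace each other at the same place in the protein. They are the second Tpm3 exon at chr3:90089048-90089123 and, on the minus strand, the first and second Tpm1 exons at chr9:67048124-67048249 and chr9:67047786-67047911.
Tpm3, first exon: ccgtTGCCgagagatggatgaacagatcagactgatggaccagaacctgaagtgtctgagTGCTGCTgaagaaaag
Tpm3, second exon: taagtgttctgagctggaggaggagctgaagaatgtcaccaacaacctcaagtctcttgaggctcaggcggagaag
Tpm1, first exon: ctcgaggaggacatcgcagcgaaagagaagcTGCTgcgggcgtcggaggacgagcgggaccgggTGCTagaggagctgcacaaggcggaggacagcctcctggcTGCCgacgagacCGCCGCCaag
Tpm1, second exon: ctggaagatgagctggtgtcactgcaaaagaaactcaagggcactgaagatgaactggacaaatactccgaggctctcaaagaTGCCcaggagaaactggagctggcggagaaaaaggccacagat

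The Tpm3 exons matched at 39 of 76 positions (51.3%) and the Tpm1 exons at 60 of 126 (47.6%). The first exon held more motif words in each gene, 3 against 0 in Tpm3 and 5 against 1 in Tpm1, and its use was higher in CUG300 + vehicle for Tpm3 and lower for Tpm1. On the list of tropomyosin, actin and myosin genes 3 of 25 events were called, next to 2.93% of all events. Rtn3, a reticulon of the endoplasmic reticulum, had 24 inclusion and 670 skipping counts in CUG10 + vehicle. In CUG300 + vehicle it had 16 and 160. By the plain share of inclusion counts, the Rtn3 difference stayed below the size threshold of the call rule. Scaled for form length, the first of its exons had a PSI of 0.375 (0.277 to 0.474) and 0.627 (0.484 to 0.738). Dnajc24, a co-chaperone, had 0.563 and 0.259. Mutually exclusive exons had the highest called share of the event types, 8.75%, on a median of 112 and 75 counts per event against 84 and 60 for skipped exons.

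Called 3′ splice sites included synaptic genes whose extensions are short and in frame. In the next lines the extension is in capitals and the rest of the exon, as far as annotated, in lower case. The Nptn exon lies at chr9:58650497-58650518 on the plus strand and the Syt1 exon at chr10:108636551-108636673 on the minus strand, of which the first 39 bases are given.
Nptn, 12-nt extension: ATGATGAACCAGctgggccaat
Syt1, 9-nt extension: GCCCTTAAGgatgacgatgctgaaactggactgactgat

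Syt1, the calcium sensor of vesicle release, used the longer form at a PSI of 0.547 (0.473 to 0.619) in CUG10 + vehicle against 0.783 (0.692 to 0.858) in CUG300 + vehicle. Nptn, the synaptic adhesion protein neuroplastin, used its longer form at 0.092 (0.062 to 0.13) and 0.244 (0.176 to 0.323). Both intervals were apart, but the Nptn difference of 0.152 was the smallest among called events. Tmem14a used a 183-nt extension at 0.275 (0.167 to 0.421) and 0.069 (0.027 to 0.149). At 5′ splice sites, Bcl11a, a zinc-finger transcription factor of cortical and hippocampal neurons, used a 1600-nt extension at 0.28 (0.215 to 0.363) and 0.117 (0.082 to 0.168). Vdac3 and Dcaf11 used extensions of 3 and 23 nt less, at 0.933 and 0.727 and at 0.928 and 0.673. Just inside the size threshold were Nptn, Celf4 and Tpm1, with differences of 0.152, −0.158 and −0.159. Just outside it, and not called, were Gtf2a2, Cox6b1 and Gnb1, with 0.149, −0.147 and −0.147.

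Retained introns called in this comparison all had fewer spliced-out reads in CUG10 + vehicle. An intron of Qsox2, a sulfhydryl oxidase, had 90 inclusion counts and 1 skipping count in CUG10 + vehicle and 45 and 8 in CUG300 + vehicle, a PSI of 0.811 (0.429 to 0.994) and 0.211 (0.111 to 0.397). For an intron of Crebzf, a leucine-zipper transcription factor, the counts were 198 and 0, then 141 and 5, a PSI of 1.0 and 0.54. Znrf1, a ubiquitin ligase of neurons, had 169 and 0, then 126 and 5, a PSI of 1.0 and 0.611. Each of these differences rests on at most 8 skipping reads. Over all 96 introns, PSI was higher in 36 and lower in 60, with a median difference of −0.0228 against −0.0085 over all events.

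Among genes reported as missplicing targets in DM1 or after loss of MBNL in brain, 1 of 42 events of sufficient depth was called (2.38%), next to 2.93% of all events. That event was in Grin1, the obligatory subunit of the NMDA receptor. A 356-nt A3SS extension of Grin1 at chr2:25292129-25292484 had a PSI of 0.58 (0.496 to 0.666) in CUG10 + vehicle against 0.776 (0.641 to 0.885) in CUG300 + vehicle, with 38 and 9 counts of the shorter form. The same extension, measured from the 111-nt exon as the upstream neighbour and not from the exon before it, stood at 0.9 and 0.971 and was not called. A 111-nt Grin1 exon had 0.523 and 0.622 in 1 event and 0.642 and 0.713 in another, neither called. The 168-nt exon of App, the amyloid precursor protein, had 0.034 (0.024 to 0.045) and 0.085 (0.06 to 0.116), a difference below the size threshold. Mapt, which encodes tau, had 1 event of sufficient depth, a 93-nt exon at 0.917 (0.744 to 0.989) and 0.914 (0.634 to 0.998) on 52 and 25 counts.

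Skipped exons were also split by their PSI in CUG10 + vehicle, which is itself a term of the difference in the call rule. An exon of low PSI there cannot fall far, and one of high PSI cannot rise far. The counts called in these PSI classes therefore cannot tell whether the starting point matters in itself. Of 353 exons with a PSI of 0.1 to 0.9 in CUG10 + vehicle, 32 were called, and of 1535 with a PSI above 0.9, 11 were called. Of 60 exons below 0.1, none was called by the interval rule, which was the only rule applied to this split. Exons whose length divides by 3 gave 26 calls from 805 (3.23%), and the rest gave 17 from 1143 (1.49%). Exons of 51 nt or less gave 7 from 151 (4.64%). Over all skipped exons 43 of 1948 were called (2.21%).

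Gene totals were then read from the same counts. Inclusion and skipping counts were summed over all listed events of a gene symbol and divided by the library total, giving event counts-per-million (CPM). This is a measure of reads at alternative segments and not a whole-gene expression value. Of 1550 genes, 87 were at least 2-fold higher (5.61%) and 369 at least 2-fold lower (23.8%) in CUG300 + vehicle. With a minimum of 50 counts in 1 library, a gene of few counts enters through the library in which it is high. These shares, and the counts and medians of the gene lists below, therefore depend in part on this minimum. The ratio of CUG300 + vehicle to CUG10 + vehicle had a median of 0.757 over all genes (log2 −0.40), so that genes shift to the lower side under this scaling. Relative to this median, 174 genes were higher and 203 lower. With a median-of-ratios size factor in place of the library total, 220 were higher and 158 lower. The top 50 genes took 30.8% of the counts in CUG10 + vehicle and 39.5% in CUG300 + vehicle.

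Interferon-stimulated genes and genes of antigen presentation made up 31 of the 87 higher genes. Type I interferon signals through a transcription factor complex that includes IRF9 and binds an interferon-stimulated response element (ISRE) in the promoters of antiviral genes. Of 27 measured genes on the interferon list, 24 were higher and 0 lower, with a median ratio of 17.6, and of 11 on the MHC and antigen presentation list 10 were higher, with a median of 15.5. Of the measured genes, Psmb8, Psmb9 and Tap1 are on both lists. Relative to genes of like transcript length, 23 interferon genes and 10 MHC genes were higher.

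Irf7, the transcription factor that amplifies the interferon response, had 120 event counts in CUG10 + vehicle and 6077 in CUG300 + vehicle, a ratio of 52.5 (43.8 to 63.4). Its events overlap and share reads, and with only the deepest event the ratio was 41, which lies below that interval. Bst2, which tethers budding virus to the membrane, had 48 and 2204 counts, 47.6-fold (35.8 to 64.7). Irf9 itself had 12 and 84 counts. Antiviral effectors stood near zero in CUG10 + vehicle. Oas1a, which makes the 2-5A signal for RNA decay, had 1 and 316 counts, a ratio of 327 with an interval from 58.3 to 12970. Mx2, an interferon-induced GTPase, had 1 and 106 counts (19.3 at the lower bound), and Isg20, an exonuclease, had 2 and 97 (13.5 at the lower bound). Usp18, which removes ISG15 and dampens the response, had 4 and 229 counts.

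The members that were not past 2-fold were Adar, Ly6e and Tdrd7. Adar, an RNA-editing enzyme, had 60 and 36 counts, Ly6e had 123 and 154, and Tdrd7 had 95 and 172. In CUG300 + CWG-cPIP, over the 6107 events with its counts and 472508 counts in total, Irf7 had 714 counts, Bst2 148, Oas1a 10 and Usp18 22.

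MHC class I genes and the parts that load them with peptide were higher together. H2-K1, a classical class I chain, had 134 counts in CUG10 + vehicle and 2010 in CUG300 + vehicle, 15.5-fold (13.0 to 18.7). H2-D1 had 195 and 1210 counts and H2-T23 had 44 and 772. These class I genes resemble each other in sequence and may share reads. Psmb8 and Psmb9, the catalytic subunits of the immunoproteasome, had 37 and 1283 and 9 and 329 counts, and the peptide transporter Tap1 had 3 and 51. Psmb8 and Psmb9 are also on the proteasome list, where the median of 16 measured genes was 1.28 and 3 were higher. The class II genes H2-Ab1 and Cd74 had 22 and 319 and 17 and 124 counts. Calr, a chaperone of class I folding, had 333 and 280.

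The promoters of some higher genes hold an ISRE core, and examples are shown. They were picked for holding a match, and most higher genes with a promoter window hold none. The windows come from RefSeq promoters of build GRCm38.p6, from 250 bases before to 50 after a gene start, and the capitals mark GAAANNGAAA or TTTCNNTTTC, which are the same core read on either strand. Oas1a is at chr5:120907511-120907570, Bst2 at chr8:71537568-71537627 and Irgm1 at chr11:48871416-48871475 on the minus strand, and Gbp5 at chr3:142496744-142496803 on the plus strand.
Oas1a: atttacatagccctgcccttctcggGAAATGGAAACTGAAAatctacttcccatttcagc
Bst2: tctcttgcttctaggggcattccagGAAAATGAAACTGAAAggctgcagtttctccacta
Irgm1: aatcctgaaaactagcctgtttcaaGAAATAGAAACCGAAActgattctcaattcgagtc
Gbp5: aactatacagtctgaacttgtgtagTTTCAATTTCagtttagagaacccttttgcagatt

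In Oas1a, Bst2 and Irgm1 overlapping cores run into 1 stretch, which begins 20, 130 and 30 bases before the gene start. The core was present in 1079 of 27025 genes of the promoter table (3.99%). A share over the higher genes is not given, because only 67 of the 87 have a promoter in the table, which is under 80%. A match is a description of the letters in this window.

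Microglia and macrophage markers were higher as well. Of 7 measured, 6 were at least 2-fold higher, and most of these 6 reached 50 counts only in CUG300 + vehicle. The summed level of the 13 symbols with a listed event was 1418 CPM in CUG10 + vehicle and 5319 CPM in CUG300 + vehicle. The 13 include Stra13, a symbol matched through a synonym and not itself listed as a marker, with 7 and 8 counts. Aif1, the microglial protein Iba1, had 39 and 437 counts, 11.6-fold (8.36 to 16.6). Fcer1g, the signalling chain of Fc receptors, had 29 and 231, Cyba, a subunit of the phagocyte oxidase, had 26 and 307, and Ctss, a lysosomal protease of antigen presentation, had 344 and 1176. Trem2, a lipid receptor of microglia, had 9 and 14 counts, below the minimum of 50. In bulk tissue, more cells of a type and more RNA per cell cannot be told apart. Lysosomal and phagocytic genes followed in part, with 4 of 8 higher, among them the tetraspanin Cd63 with 244 and 1424 counts. C4b, a complement component, had 27 and 87 counts. Gfap, the intermediate filament of reactive astrocytes, had 316 and 796 counts, whereas the astrocyte genes Ndrg2 and Fgfr3 were lower, with 118 and 42 and 63 and 21. None of the 5 measured oligodendrocyte genes passed 2-fold in either direction under the library-total scaling. Lymphocyte and proliferation markers had 2 and 5 genes with listed events and none with 50 counts, with summed counts of 8 and 30 and of 22 and 27.

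Ttr, the thyroxine carrier that choroid plexus secretes, had the largest ratio of all measured genes. Ttr (ENSMUSG00000061808) had 104 event counts in CUG10 + vehicle and 38435 in CUG300 + vehicle, a ratio of 383 (316 to 469), and made up 0.0196% and 7.5% of all counts. Of 38 choroid plexus markers, 11 had a listed event, and their summed level was 1106 CPM in CUG10 + vehicle, 79760 CPM in CUG300 + vehicle and 1120 CPM in CUG300 + CWG-cPIP. Calml4 had 13 and 253 counts, and Slc16a8, a lactate transporter of this epithelium, had 1 and 39. Ace, Car12, Sulf1 and Lbp had 1 and 9, 3 and 5, 3 and 5, and 5 and 7 counts, Cab39l had 49 and 69, and Stk39 and Atp2b3 had 31 and 20 and 5 and 2. Every event listed for the pair has counts in both libraries, so no gene of these tables can stand at 0, and markers with no listed event, such as Folr1 and Kl, were not measured here. Of the ependymal genes, Rarres2 had 32 and 160 counts and 1110017D15Rik had 21 and 143. Leaving Ttr out of the library total moved the median ratio of all genes to 0.818, with 109 genes higher and 323 lower.

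**Figure D2:**
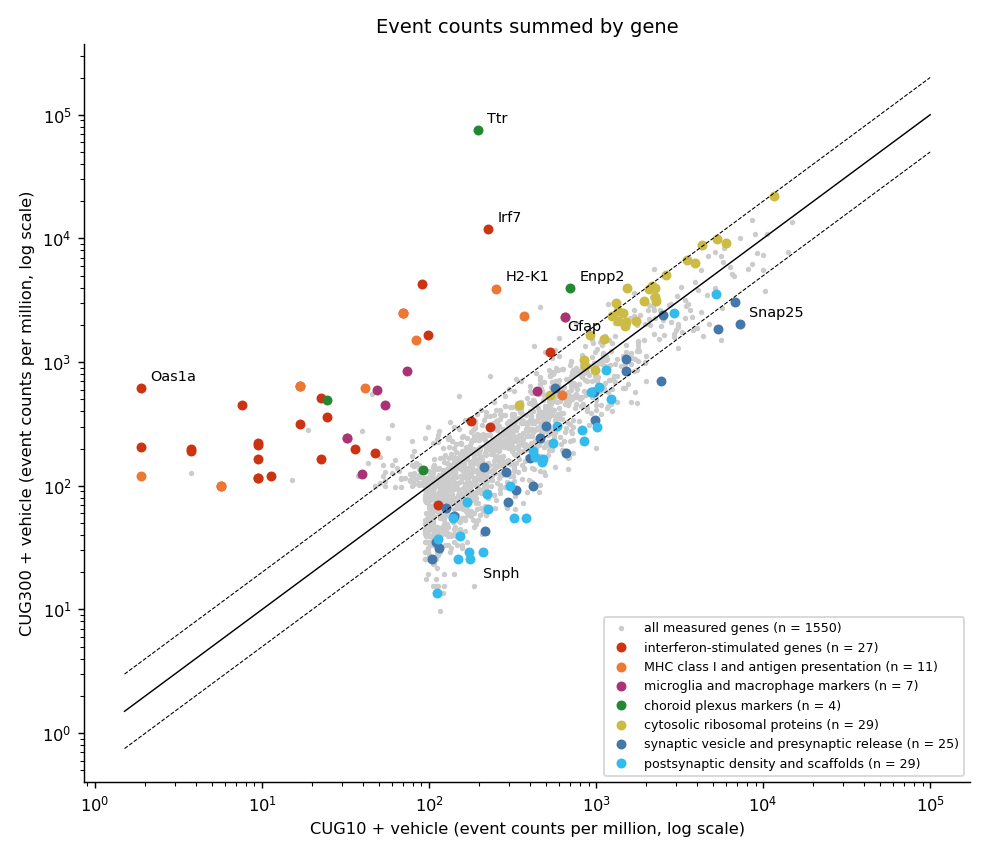
Event counts-per-million of each of the 1550 measured genes in CUG10 + vehicle (horizontal) and CUG300 + vehicle (vertical), both on log scales, 1 mouse each. The solid line marks equal values and the dashed lines a 2-fold difference, colours mark gene lists as named in the legend, and Ttr, Irf7 and most interferon and MHC genes lie above the upper dashed line.

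Neuronal genes were on the lower side. Of 117 measured genes on the neuronal lists or the neuron marker list, 80 were at least 2-fold lower and 0 higher, next to 23.8% lower over all genes. With the median-of-ratios factor 50 of the 117 were lower and 0 higher. By list, 23 of 29 genes of the postsynaptic density, 16 of 25 of synaptic vesicles and release, 20 of 25 of microtubules and axons, 8 of 10 of synaptic adhesion and 4 of 8 glutamate and GABA receptor genes were lower. Their median ratios were 0.343, 0.401, 0.373, 0.365 and 0.482. Some lower genes, such as Dlg2 with 59 and 7 counts, passed the minimum of 50 counts only through CUG10 + vehicle. The share over all genes has the same limit. Without this minimum, the 43 postsynaptic density genes with a listed event summed to 21420 CPM in CUG10 + vehicle and 11630 CPM in CUG300 + vehicle. The 38 genes of synaptic vesicles and release summed to 35010 and 15490 CPM.

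Snph, syntaphilin, which anchors mitochondria in axons, had 98 counts in CUG10 + vehicle and 8 in CUG300 + vehicle, a ratio of 0.0846, and was among the genes with the lowest upper bound. Camk2a, the main kinase of the excitatory postsynapse, had 171 and 28 counts and its relatives Camk2b and Camk2g had 447 and 117 and 112 and 15. Kalrn, an exchange factor that shapes dendritic spines, had 202 and 28. Of scaffold genes, Dlg4, which encodes PSD-95, had 647 and 260 counts and Dlg2 had 59 and 7. Arc, an activity-induced synaptic gene, had 79 and 13. Psd, with 2772 and 1830 counts, was the deepest gene of the list that was not past 2-fold.

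Presynaptic genes showed the same side with a wide range. Snap25, a SNARE protein of vesicle fusion, had 3866 and 1036 counts, a ratio of 0.278 (0.259 to 0.297), and Syp, a vesicle membrane protein, had 3594 and 1565, a ratio of 0.451 (0.425 to 0.479). The vesicular glutamate transporter Slc17a7 had 1292 and 362 counts and the dynamin Dnm1 had 2845 and 954. Receptor genes were lower for Gria1 (532 and 230), Gria3 (159 and 38) and Gabra5 (79 and 34), and Cnih2, an AMPA receptor partner, had 942 and 763. Nrgn, a neuronal gene with a short transcript, had 1548 and 1287 counts, a ratio of 0.861. The potassium channel genes Kcnip2 and Kcnj3 had 66 and 24 and 51 and 9 counts.

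Genes of the DM1 and MBNL target list were lower in total in 18 of 28 cases, next to 23.8% of all genes, with a median ratio of 0.391. With the median-of-ratios factor 12 of the 28 were lower, and relative to genes of like transcript length 7 were. Spag9, a scaffold of axonal transport, had 62 and 5 counts, Sorbs2 had 93 and 13, Ndrg4 had 936 and 240 and App had 5301 and 2848. Mbnl2, the main muscleblind protein of brain, had 169 and 62 counts, a ratio of 0.38 (0.279 to 0.511) that stood at 0.676 against its length class, and Celf3 had 93 and 41. Celf1 had 465 and 430. hnRNP and other splicing regulator genes had median ratios of 0.705 and 0.7, close to the median of all genes.

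Ribosomal and respiratory genes were on the other side of the median gene. All 29 measured cytosolic ribosomal protein genes lay above it, with ratios from 0.871 to 2.62 and a median of 1.62, though 3 were past 2-fold. With the median-of-ratios factor 20 of them were past 2-fold. Rps24 had 809 counts in CUG10 + vehicle and 2046 in CUG300 + vehicle, and Rps9, the deepest, had 6135 and 11206. Many ribosomal protein genes have processed copies with which they may share reads. Of 39 genes of the respiratory chain and ATP synthase, 38 lay above the median gene, with a median ratio of 1.14 and 0 past 2-fold. Cox4i1, a subunit of cytochrome c oxidase, had 4712 and 5592 counts.

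**Figure D3:**
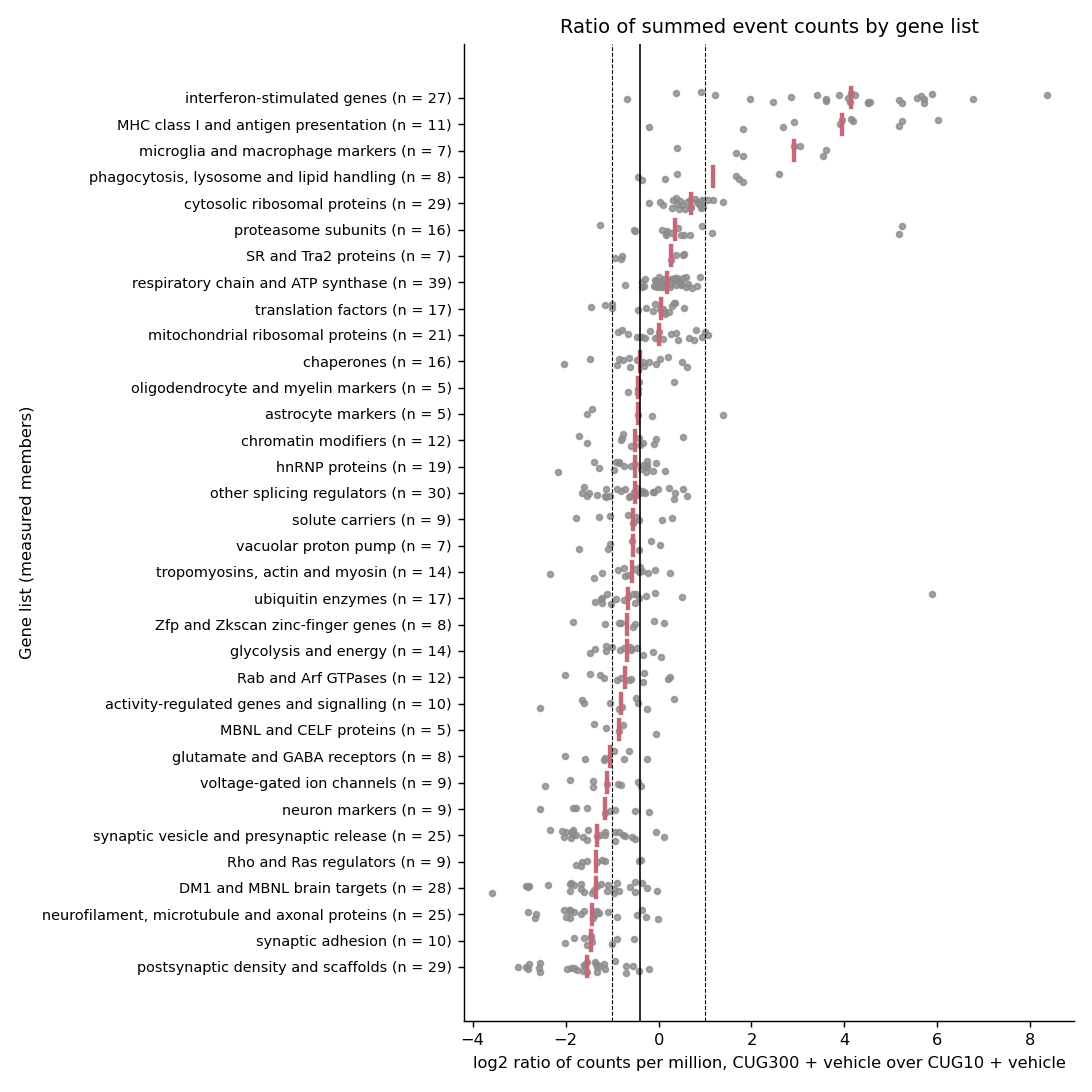
log2 ratio of event counts-per-million, CUG300 + vehicle over CUG10 + vehicle, for genes of each list with at least 5 measured members, 1 mouse each. Grey points are genes, red bars the list's median, the solid line the median of all 1550 genes (−0.40) and the dashed lines a 2-fold difference, and the medians run from interferon-stimulated genes at the top to the postsynaptic density at the bottom.

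Transcript length moved with these totals. Genes whose coding transcripts had a median length of up to 1000 nt had a median ratio of 1.251 (n = 232), and the ratio was 0.909, 0.761, 0.629, 0.562 and 0.406 in the classes up to 1500, 2000, 3000, 4000 and 6000 nt, and 0.449 in the 45 longer genes. Across the 1487 genes with a length, which are not independent of each other, Spearman's rho of length and ratio was −0.562. Higher genes had a median length of 1352 nt and lower genes 3223 nt. The position of an event within its transcript moved with the counts too. Events less than 500 nt from the 3′ end had a median log2 ratio of 0.14 (n = 639) and those from 3000 to 5000 nt had −1.14 (n = 201), and it was −0.68 for the 34 events farther away.

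Within genes, the event farther from the 3′ end had the lower ratio in 82 of 106 genes with events at least 1000 nt apart, by a median of −0.43 on the log2 scale. For CUG300 + CWG-cPIP over the same CUG10 + vehicle library the medians ran from −0.21 near the 3′ end to 0.58 beyond 5000 nt, and the farther event was higher in 104 of 163 genes. These comparisons share the CUG10 + vehicle library. No value of RNA integrity is part of the files, and whether the length pattern arose in the tissue or in the library was not tested.

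**Figure D4:**
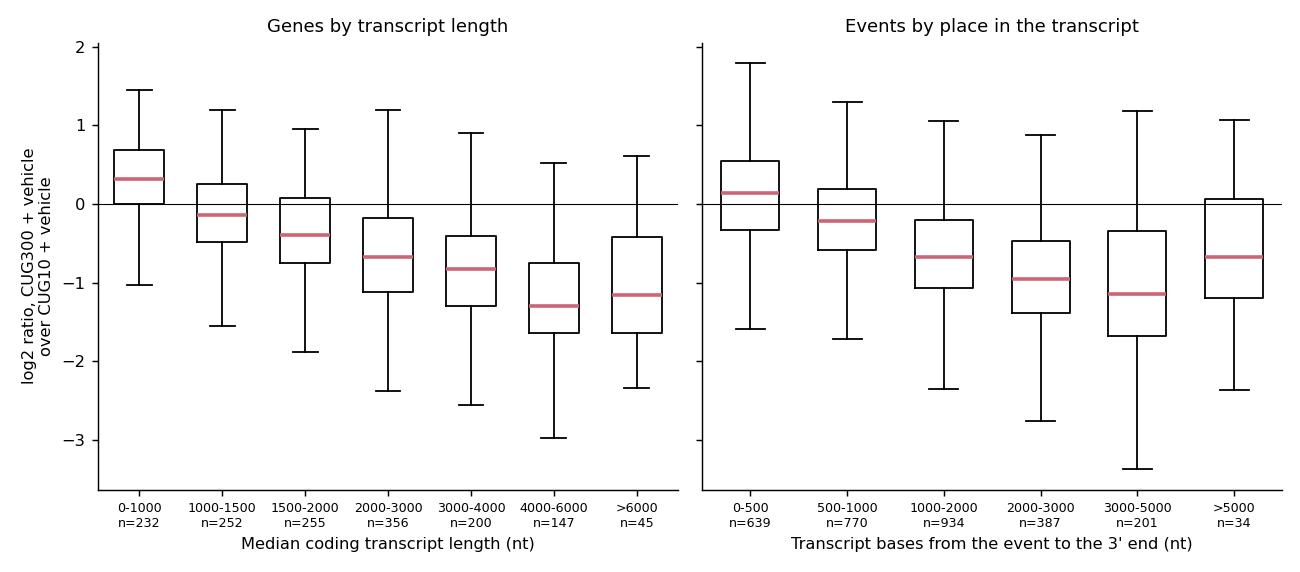
log2 ratio, CUG300 + vehicle over CUG10 + vehicle, of gene totals by median coding transcript length in nt (left) and of events by transcript bases to the 3′ end in nt (right), 1 mouse each. Boxes span the quartiles, red lines are medians and whiskers reach the last value within 1.5 box lengths, and the median goes from 0.32 in the shortest genes to −1.30 in genes of 4000 to 6000 nt.

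Gene groups held their place to different degrees when each gene was set against the median of its length class. By that measure 135 of 1487 genes were higher (9.08%) and 97 lower (6.52%), and 66 of the 87 higher and 89 of the 369 lower genes were past 2-fold in both. Microglia markers stayed at 6 of 7 higher, and choroid plexus markers stood at 4 of 4. The cytosolic ribosomal protein median was 1.51 with 4 of 29 higher, and the respiratory median was 1.05. Of these 4, Rps15a was set against the class of 4000 to 6000 nt. Its median coding transcript length was 5130 nt, while the median of its list was 833 nt. Its ratio went from 2.27 to 5.58, which rests on that length. Of the neuronal genes, 30 of the 113 with a length were lower and 0 higher. Snap25, Slc17a7 and Arc had ratios of 0.365, 0.461 and 0.303 against their class, whereas Gria1, of a long transcript, had 1.1. Atp2a2 and Slc8a2, also of long transcripts but not on the neuronal lists, had 1.05 and 1.01. Gria1, Atp2a2 and Slc8a2 were picked from the named genes whose ratio went above 1 by this measure.

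Genes with a called event were also read in their totals. Of the 70 genes with a called event, 64 had 50 or more counts, and of these 2 had higher totals, 6 lower totals and 56 neither. Over all measured genes 5.61% were higher and 23.8% lower. The 64 genes had a median ratio of 0.752, close to that of all genes. The 2 were Enpp2 and Ifi27, names that were picked out once the values were known. Ifi27, an interferon-induced mitochondrial protein, had a 135-nt exon at 0.847 (0.711 to 0.939) in CUG10 + vehicle and 0.683 in CUG300 + vehicle, on 100 and 241 counts, and a total of 280 and 623. Beside it, the 11 events of the interferon list gave this 1 call.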

How the data were processed

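Hippocampal total RNA of 3 mice, 1 per group, was sequenced from a directional library. Per the submitters' processing notes and the methods, the authors trimmed reads with Trim Galore 0.6.6, aligned them to mm10 with STAR 2.7.9a, and compared splicing between pairs of libraries with rMATS 4.1.2. RSEM 1.3.3 and DESeq2 1.36.0 served the authors' gene expression work, which was not analysed here. The gene annotation is not given in the sources used here. The deposited tables give, for each event, counts of reads for the inclusion and the skipping form (junction and exon reads, JCEC), and the authors' inclusion level as a fraction. They also hold the authors' p-value, FDR and inclusion difference for each pair, which were not used. PSI was recomputed from the deposited counts and form lengths, and deviated from the deposited fraction by at most 0.0005. The skipping form of skipped exons had a length of 74 nt, as for reads of 75 nt, and the reads described in the methods are longer.

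The tables do not list events that were fully included or fully skipped in the compared pair. Of 1552 events with counts of all 3 libraries that were not listed for this pair, 1346 had no skipping count and 115 no inclusion count in either library. Totals were 530942 and 512513 counts. Overlapping events of a gene share reads.

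PSI used events with 20 or more counts in each library, with 95% Clopper-Pearson intervals and Newcombe intervals of the difference. Gene totals used 50 or more counts in 1 library and 2-fold, with exact binomial intervals of the ratio. Named events were the 12 skipped exons and 3 events of each other type with intervals farthest from 0, plus called events of the RNA-binding protein and DM1 lists, and Mapt, Grin1 and App. Named genes were the 12 with the highest lower bound, the 12 with the lowest upper bound, and from each list up to 5 past 2-fold with the most counts and the deepest one that was not. Other genes named from a list were chosen after their values were seen. The members and gene lists were chosen with earlier results of these data known. Exon sequences came from GENCODE M21 transcripts, and promoters from RefSeq GRCm38.p6. The calculations were tested on simulated data and run in Python 3.11.15 with pandas 2.3.3, numpy 2.4.6, SciPy 1.17.1 and matplotlib 3.10.9. Values of a few list members are not reported here.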

Additional observations from a re-analysis of the deposited data

How the results depend on the processing

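With 1 mouse per group no replicate could be left out. No paired analysis was possible because each group holds only replicate 1. The 74 called events became 32 with a minimum of 50 counts, 34 with a PSI difference above 0.25, 40 with 1 event per gene and 9 by Fisher's exact test on the reads of these libraries with Benjamini-Hochberg adjustment, which compares the libraries and not the conditions. Those 9 were the Enpp2 exon, both Clta exons, and events of Hnrnpa2b1, Tpm3, Nptn, Syt1, Atp6v1h and Bcl11a. With the plain share of inclusion counts, the differences of the Hnrnpa2b1, Thyn1, Rbm4, Bclaf1, Rnps1, Bcl11a, Rtn3 and Grin1 events stayed below 0.15 in size. So did those of the Qsox2, Crebzf and Znrf1 introns. The 87 genes with higher totals became 220 with a median-of-ratios size factor and 52 at 3-fold. The 369 with lower totals became 158 with that factor, 191 with 100 or more counts, 688 with 20 or more, 136 at 3-fold and 160 where the whole interval had to pass 2-fold. The median ratio was 0.818 without Ttr, 0.86 without the top 50 genes, 1.095 with the median-of-ratios factor, 0.796 with 100 or more counts, 0.709 with 20 or more and 0.723 with skipped exons only. 2 alternatives were chosen after seeing the data: relative to the length class 135 genes were higher and 97 lower, and with only events within 1000 nt of the 3′ end 41 were higher and 128 lower. Relative to the length class, the ratio went above 1 for Arhgap12 (1.1), Atp2a2 (1.05), Gria1 (1.1), Slc38a2 (1.2), Slc8a2 (1.01) and Usp33 (1.04), and the cause was not tested. Medians of the astrocyte, oligodendrocyte, fibroblast, chaperone, hnRNP, other splicing regulator and chromatin lists lay below 1 with the library total and above 1 with the median-of-ratios factor. Only the plain share and Fisher's exact test were tried on each named event. Over both, named events kept their call in 29 pairings of an event with an alternative and lost it in 35. These pairings include the events listed above. Beside the genes that went above 1, named genes kept their side of 2-fold in 1335 pairings, fell short of it in 162 and newly passed it in 16. The depth of an event limits its call: at 21 and 20 counts the PSI intervals of the Aifm3 exon ran from 0.417 to 0.86 and from 0.069 to 0.429.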
